A study of Mus musculus with 33 samples.

Results

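Mature neutrophils that carry Cxcr2 and Retnlg mRNA were examined in 4 mouse tissues by single-cell RNA sequencing. They were chosen by measured transcript counts: a cell entered with at least 1 UMI (unique molecular identifier, a count of 1 captured mRNA) of Cxcr2, at least 2 of Retnlg, fewer than 5 of Ltf, fewer than 5 of Il1b, and 0 of Mki67 and Top2a. This took 3985 of 55366 cells (7.20%) left after a filter (500 or more UMIs, 200 or more genes, mitochondrial UMIs up to 15%). These 6 genes chose the cells, so their levels are description and carry no test. The mice had received an intracardiac injection of tumour cells that carry the SAMENT enzyme, which marks neighbouring cells with biotin once its substrate is given. Bone, brain, liver and lung were dissociated with collagenase, and the cells were sorted into biotin positive (tagged) and biotin negative (untagged). Each of the 8 groups had 4 samples. The labels used here give no strain, age, sex, tumour line or number of animals for these samples, all groups shared the injection, and there is no group without tumour cells. Nothing in the labels says that samples came from separate animals, so the p-values measure the spread between these samples.

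Neutrophils mature in the bone marrow. They first fill secondary granules with proteins such as lactoferrin (Ltf) and cathelicidin (Camp), then gelatinase granules with Mmp8 and Mmp9, and leave the marrow as CXCR2, the receptor for the chemokines CXCL1 and CXCL2, overcomes CXCR4-mediated retention. Retnlg encodes a resistin-like protein of granulocytes, Prok2 the secreted peptide prokineticin, and Slfn1 a member of the Schlafen family. In inflamed tissue neutrophils switch on NF-kB target genes and secrete chemokines that draw in further neutrophils.

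The untagged bone samples held 134, 433, 552 and 903 of these cells, and the tagged bone samples held 103, 128, 73 and 138. Untagged brain held 40, 154, 58 and 276, and tagged brain held 14, 10, 8 and 21. Untagged liver held 51, 151, 49 and 62, and tagged liver held 27, 37, 31 and 5. Untagged lung held 13, 96, 18 and 75, and tagged lung held 18, 225, 53 and 29. Bone thus gave most of the cells, and tagged brain gave the fewest. Their median depth ranged from 1819 to 9993 UMIs between samples, and whole libraries held 497940 to 44874529 UMIs. No barcode was shared in 112 pairs of libraries with the same replicate number, and the 384 other pairs shared 341 barcodes, at most 7 in a pair.

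The markers of neutrophils were high in most of the selected cells and low in others. S100a8 and S100a9, the calprotectin subunits that make up a large part of neutrophil mRNA, took at least 10% of the UMIs in 3333 cells (83.6%), called S100-rich from here on. The other 652 were S100-poor. The distribution was in 2 humps: 541 cells lay under 5%, 203 between 5% and 15%, and 3241 above 15%. The S100-rich cells held a median of 306 Retnlg UMIs and 6 Cxcr2 UMIs, and Prok2 was detected in 54.2% to 66.7% of them by group. The S100-poor cells held a median of 3 Retnlg UMIs and 1 Cxcr2 UMI, against limits of 2 and 1 in the rule, and Prok2 was detected in 0% to 10.2% of them. S100-rich cells are therefore described separately wherever the S100-poor cells touch a result. That division was made after the data had been seen.

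**Figure D1:**
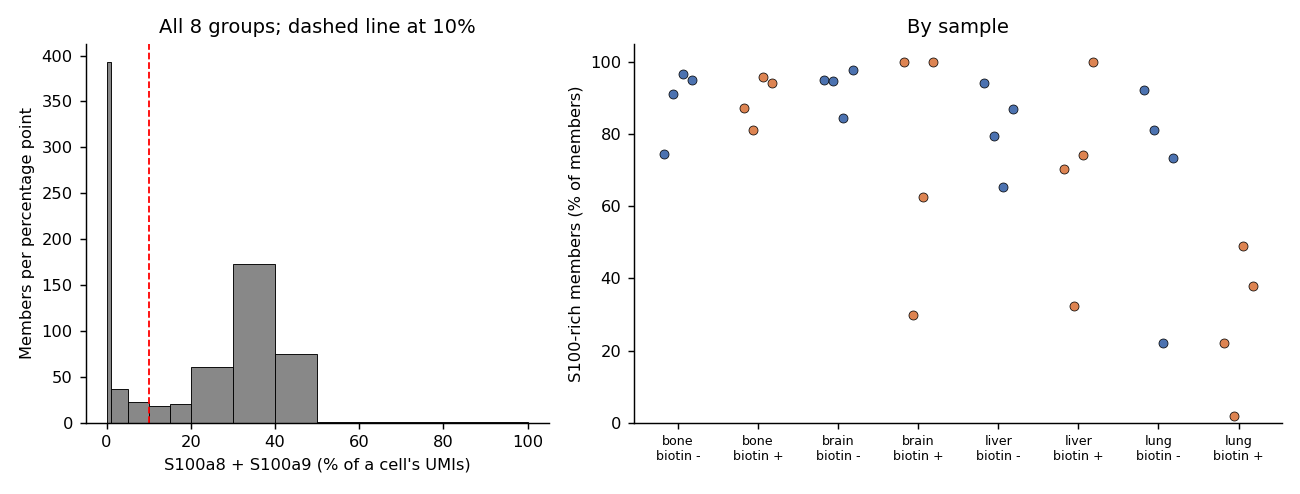
Left: the number of selected cells per percentage point of S100a8 plus S100a9 in their UMIs, over all 8 groups, with a dashed line at 10%. Right: the percentage of selected cells that were S100-rich in each sample, 1 point per sample; tagged lung lies lowest, from 1.78% to 49.1%.

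S100-poor cells were most frequent in tagged lung. There, the S100-rich share was 22.2%, 1.78%, 49.1% and 37.9% in the 4 samples, against 92.3%, 81.3%, 22.2% and 73.3% in untagged lung. In bone the share ran from 74.6% to 96.7% over the 8 samples. The shares of the 2 lung groups overlapped, whereas every bone sample lay above every tagged lung sample. Of the 280 S100-poor cells of tagged lung, 92.9% had a UMI of Lpl (lipoprotein lipase) and 92.9% of Ear2, both abundant in alveolar macrophages, and 31.8% had one of Csf3r, the neutrophil growth factor receptor. Summed over these cells in each sample, the chitinase-like gene Chil3 stood at 13511, 21526, 14003 and 12719 CPM (UMIs of a gene scaled to a common library total). Chil3 was not particular to them. In untagged bone it was detected in 55.9%, 94.7%, 61.1% and 63.0% of S100-poor cells by sample, and in 56.0% to 97.7% of S100-rich cells. The S100-poor cells of untagged bone differed from those of tagged lung in Lpl and Csf3r: 2.21% of 136 had Lpl and 82.4% had Csf3r. In tagged liver, 61.0% of 41 S100-poor cells had Lpl, most of them in sample 2: 84.0% of its 25, against 12.5% and 37.5% of 8 each in samples 1 and 3.

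UMIs of both marker genes were also found in cells of other types, and free RNA and doublets were not told apart. Among B cells (at least 2 UMIs of Cd79a and 1 of Ms4a1), 3.63% to 42.9% carried at least 2 Retnlg UMIs and 0% to 21.7% carried a Cxcr2 UMI in the 25 samples with at least 20 B cells. The medians over those samples were 20.5% and 4.11%. Median depth was 1976 to 6209 UMIs in those B cells. Both genes together were rare: 26 of 3934 B cells met the full rule. In sample 2 of tagged lung, 214 of 1912 cells with Chil3 and Lpl and little S100 met it (11.2%), and over the 4 tagged lung samples 257 of 3844 (6.69%), with 0.925% to 7% in the other 3. Prok2 was detected in 0% to 11.1% of B cells and Slfn1 in 0% to 19.7% in the same 25 samples, against 0% to 81.0% and 6.22% to 87.1% of the selected cells over all 32 samples.

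The S100-rich share just inside and just outside each limit of the rule was as follows. With Retnlg at 2 UMIs, 7.41% of 243 cells were S100-rich, and with 1 UMI, just outside, 6.19% of 388; Prok2 was detected in 2.88% and 0.515% of these cells. With Ltf at 4 and 5 UMIs the shares were 98.8% of 81 and 100% of 68, and with Il1b at 4 and 5 UMIs they were 85.4% of 323 and 82.7% of 294. The gap was wider for Cxcr2: 30.7% of 531 cells with 1 UMI were S100-rich, against 1.65% of 4617 cells with 0.

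The promoter of Retnlg, the marker with the highest level in the selected cells, is shown because its gene defines them. These are the 250 bases before the gene start in RefSeq (GRCm38.p6), at chr16:48872358-48872607 on the plus strand. The capitals mark a match to TTGCNNAA, the C/EBP letters, read on the other strand; C/EBP proteins are the main granulocyte transcription factors.

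Retnlg: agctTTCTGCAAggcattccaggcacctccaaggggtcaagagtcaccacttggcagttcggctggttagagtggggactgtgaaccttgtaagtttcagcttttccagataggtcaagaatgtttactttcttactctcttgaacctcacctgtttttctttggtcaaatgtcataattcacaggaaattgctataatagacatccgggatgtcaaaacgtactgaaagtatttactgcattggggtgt

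Of 32851 mouse promoters of this length, 9.56% held TTGCNNAA on either strand. The listed promoters of Cxcr2, Prok2 and Slfn1 held none. A match of letters is a description and shows no binding.

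The selected cells lay between immature and activated neutrophils in secondary granule mRNA. Immature neutrophils were the 3702 cells with at least 5 Ltf UMIs and activated neutrophils the 11828 cells with at least 5 Il1b UMIs, so Ltf and Il1b levels follow from the definitions, and the 3 classes are compared here without a test. In untagged bone, Camp averaged 24818 ± 3886 CPM in immature cells, 419 ± 141 in the mature Cxcr2 Retnlg cells and 161 ± 37.6 in activated cells (SD, n = 4). Ngp, another secondary granule gene, fell in the same order, from 32244 to 3987 to 1296 CPM. Mmp8, the neutrophil collagenase of the later granules, was highest in the mature cells, at 3623 ± 801 CPM against 2056 in immature and 2375 in activated cells. Retnlg itself averaged 49618 ± 7540 CPM in the mature, 13914 in the immature and 32841 in the activated cells. The 3 classes also held S100-poor cells. When only S100-rich cells were counted, the classes together went from 4974 to 4546 cells in untagged bone. They went from 4351 to 3114 in untagged lung and from 1966 to 1116 in tagged lung.

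Mature Cxcr2 Retnlg cells made up a larger share of the neutrophils in untagged bone than in any other untagged tissue. Their percentage of the 3 neutrophil classes was 25.2, 37.9, 49.95 and 41.1 in the 4 bone samples. The brain samples had 12.2, 18.4, 23.4 and 19.8, the liver samples 9.14, 12.9, 20.9 and 9.51, and the lung samples 1.44, 5.72, 7.09 and 4.94. Each tissue lay wholly below bone. The bone mean was 38.5 ± 10.3, the brain mean 18.5 ± 4.65, the liver mean 13.1 ± 5.44 and the lung mean 4.80 ± 2.41 (SD, n = 4). Each of the 3 differences from bone had an exact two-sided permutation p of 0.0286, also after Benjamini-Hochberg adjustment over 3. That is the smallest p that 4 against 4 samples allow. The 3 comparisons share the same bone samples, and the same-numbered sample was lower than bone in 4 of 4 pairs in each. Taken as pairs, each had an exact sign-flip p of 0.125, the smallest that 4 pairs allow.

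The order held in part when cells were compared at equal depth. With each cell thinned to 1000 UMIs, where fewer cells reach 5 UMIs of Il1b, the bone share was 51.8 ± 8.12%, the brain share 45.0 ± 18.2% (exact permutation p = 0.571), the liver share 34.2 ± 16.0% (p = 0.114) and the lung share 21.0 ± 13.2% (p = 0.0286). Lung thus stayed below bone at equal depth, and the brain and liver differences no longer passed the test. Among S100-rich cells the bone share was 39.0 ± 10.1%, against 20.5 ± 6.13% for brain (exact permutation p = 0.0571), 12.997 ± 2.97% for liver (p = 0.0286) and 4.27 ± 1.66% for lung (p = 0.0286).

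**Figure D2:**
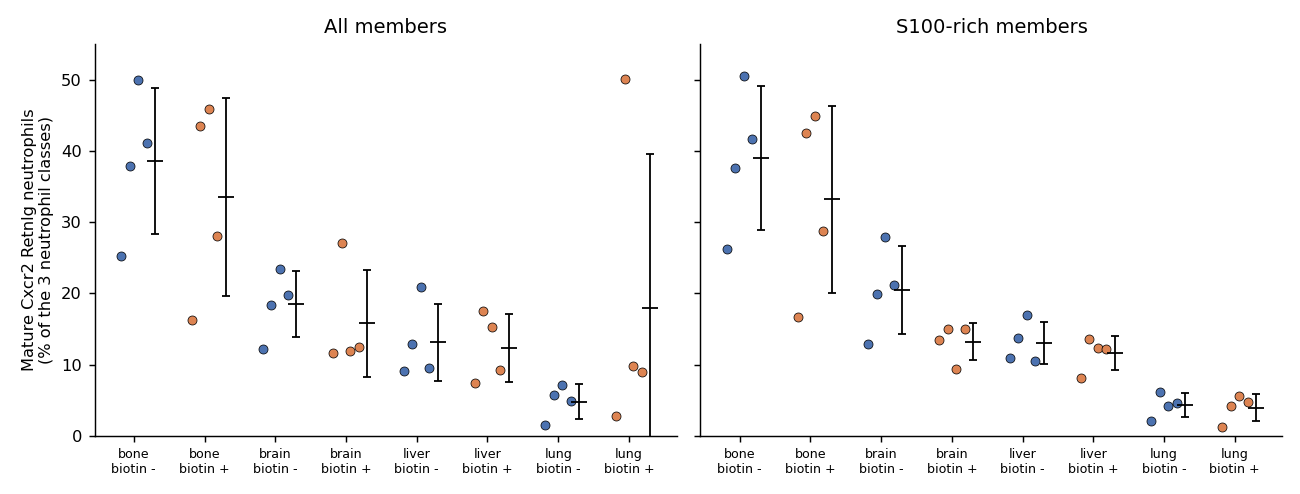
Mature Cxcr2 Retnlg neutrophils as a percentage of the 3 neutrophil classes in each sample; points are samples and bars show the group mean with SD (n = 4), one panel per way of counting. With all cells at full depth untagged bone averages 38.5% and untagged lung 4.80%; the single high tagged lung sample at 50.1% is not seen among S100-rich cells.

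Tagged and untagged samples of a tissue did not differ detectably in this share. In bone it was 33.5 ± 13.9% in tagged and 38.5 ± 10.3% in untagged samples (exact permutation p = 0.600, n = 4 each). The brain means were 15.8 ± 7.52% and 18.5 ± 4.65% (p = 0.600, exact permutation), and the liver means 12.3 ± 4.81% and 13.1 ± 5.44% (p = 0.886, exact permutation). In lung they were 17.9 ± 21.7% and 4.80 ± 2.41% (exact permutation p = 0.200), with 1 tagged sample at 50.1%; the tagged sample was higher in 4 of 4 same-numbered pairs, both as a share of neutrophils and of all kept cells (exact sign-flip p = 0.125, the smallest that 4 pairs allow). Among S100-rich cells the lung means were 3.93 ± 1.86% and 4.27 ± 1.66% (exact permutation p = 0.800), so the direction turned.

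As a percentage of all cells kept, the selected cells were 11.3 ± 4.53 in tagged and 17.4 ± 9.36 in untagged bone (exact permutation p = 0.286), and 2.43 ± 0.692 and 6.87 ± 4.01 in brain (exact permutation p = 0.114). Per sample, tagged brain gave 2.54, 1.48, 2.58 and 3.14% and untagged brain 1.95, 10.6, 5.28 and 9.66%, so the 2 overlapped through 1 untagged sample. In liver the values were 3.82 ± 1.29 and 3.90 ± 1.99 (exact permutation p = 0.943), and in lung 4.67 ± 3.66 and 1.88 ± 1.55 (exact permutation p = 0.171). Of the 325 selected cells of tagged lung, 280 were S100-poor. In S100-rich cells the lung values turned to 1.01 ± 1.02 and 1.37 ± 1.35 (exact permutation p = 0.686).

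Where the cells of untagged tissues were compared with those of untagged bone, genes of the immediate early and NF-kB response lists were among those higher in liver and lung. The test was edgeR's quasi-likelihood test on UMIs summed over the selected cells of each sample, with Benjamini-Hochberg adjustment over all genes tested. With all selected cells, in samples with at least 20, liver differed from bone in 12 of 8084 genes (0.148%), 11 of them higher. Lung differed in 18 genes (0.223%), all higher, with 2 lung samples. Brain differed in 0 genes (0%), with 284 at an unadjusted p under 0.05. DESeq2 called 17 genes for brain, 66 for liver and 137 for lung, and edgeR with no filter on low counts 36, 180 and 173. The immediate early gene Fos, the lipopolysaccharide co-receptor Cd14, the chemokine Cxcl2 and the transcription factor gene Csrnp1 were called in both liver and lung. Those counts rested on few samples: leaving out 1 sample gave 1 to 22 genes in liver, with 1 when bone sample 1 or 4 was left out, and 0 to 21 in lung, with 0 when bone sample 3 or 4 was left out. Same-numbered samples list the same multiplexing tags, and with that number as a block edgeR called 6 genes for brain, 52 for liver and 166 for lung.

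S100-rich cells alone, in samples with at least 10 of them, gave more called genes over 4053 tested. Brain differed from bone in 16 genes (0.395%; 15 higher, 1 lower), liver in 82 (2.02%; 77 higher, 5 lower) and lung in 182 (4.49%; 153 higher, 29 lower). Of the genes called with all cells, 9 in liver and 17 in lung were called here too. DESeq2 gave 23, 96 and 191. The replicate block gave 80 genes in brain, 186 in liver and 337 in lung. Leaving out 1 sample gave 42 to 82 genes in liver, lowest without liver sample 2, and 89 to 191 in lung, lowest without lung sample 2. In brain it gave 0 to 28, with 0 when bone sample 3 or bone sample 4 was left out, so no brain gene below held under every choice. Over all 4053 genes tested, samples did not overlap untagged bone in 155 genes for brain, 311 for liver and 787 for lung. Absence of overlap was also a condition for naming genes by largest change, so it is description below. All values in the next paragraphs are CPM levels or log2 fold changes in S100-rich cells, with samples 1, 2 and 4 standing for lung.

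Cxcl2, a ligand of CXCR2, had some of the highest levels among the genes that rose. It stood at 730.0, 1308, 1669.6 and 1380.0 CPM in the 4 untagged bone samples, and the brain samples had 1400.1, 5954, 5019 and 5061 CPM. It reached 6163, 12548, 15279.9 and 13143 CPM in liver and 8618, 11029 and 12951 CPM in lung. All liver and lung samples lay above all bone samples, whereas the lowest brain sample fell within the bone range. The log2 fold change was 1.78 ± 0.38 (SE) in brain (edgeR adjusted p = 0.0295), 3.21 ± 0.40 in liver (1.03e-05) and 3.09 ± 0.41 in lung (2.25e-05). Cxcr2 itself, a gene of the rule, ran from 1027 to 1541 CPM in bone, 817 to 1512 CPM in liver and 478 to 1014 CPM in these lung samples.

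G0s2, which encodes an inhibitor of triglyceride lipase, rose in all 3 tissues. Its levels were 239, 429, 259.8 and 326 CPM in bone, with brain samples at 849.7, 1482, 781 and 2101, liver samples at 1535, 1839.7, 2734 and 4827, and lung samples at 4125, 3549 and 3616. No sample of a tissue overlapped bone, which was a condition for naming genes by largest change. The log2 fold changes were 2.06 ± 0.36 (edgeR adjusted p = 0.00871), 3.12 ± 0.37 (7.75e-06) and 3.58 ± 0.39 (1.33e-06) in brain, liver and lung.

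Cd14 and Trem1 rose in the 3 tissues. Cd14 stood at 299, 495, 207 and 217 CPM in bone, with brain samples at 509.8, 1393, 1034 and 675, liver samples at 1140.0, 1937, 1393 and 2149.8, and lung samples at 3128, 2426 and 2073, without overlap. Its log2 fold changes were 1.57 ± 0.31, 2.44 ± 0.32 and 3.05 ± 0.34. Trem1, an amplifier of Toll-like receptor signals, stood at 206, 331, 182 and 157 CPM in bone, with brain samples at 355, 530.4, 564 and 533, liver samples at 579, 798, 600.2 and 673, and lung samples at 997, 836 and 878. The brain sample at 355 was close to the highest bone sample, and the groups did not overlap. Its log2 fold changes were 1.18 ± 0.21, 1.60 ± 0.21 and 2.04 ± 0.23. Clec4e, the receptor Mincle, was called in liver (1.10 ± 0.23, edgeR adjusted p = 0.00513) and stood at 0.53 ± 0.25 in lung (0.299).

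Osm, which encodes the cytokine oncostatin M, stood at 111, 142, 109 and 123 CPM in bone, with brain samples at 606, 317, 173 and 426, liver samples at 1027, 654, 615 and 1360.5, and lung samples at 478, 413 and 719. The narrow bone range lay below every other untagged sample. Its log2 fold changes were 1.64 ± 0.33 in brain (edgeR adjusted p = 0.0165), 2.91 ± 0.35 in liver (7.75e-06) and 2.15 ± 0.36 in lung (0.000377). Nfkbiz, a nuclear regulator of NF-kB, stood at 164, 189.9, 145 and 141 CPM in bone, with liver samples at 670.2, 754, 445 and 680.2, and lung samples at 478, 838 and 453. It rose in liver (2.01 ± 0.23) and lung (1.91 ± 0.25), and the brain value of 0.75 ± 0.23 did not pass the test (edgeR adjusted p = 0.334).

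**Figure D3:**
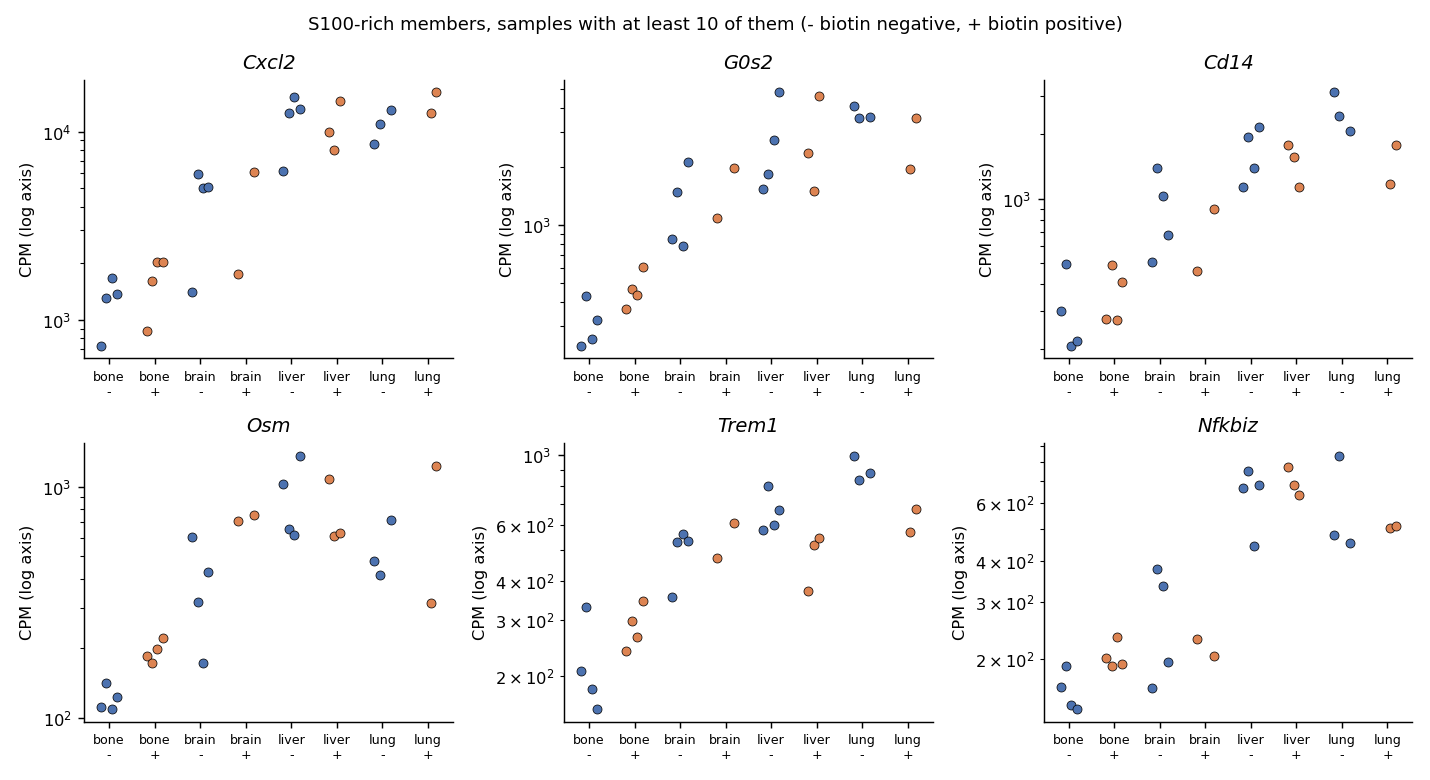
Levels of 6 genes in S100-rich cells by sample (CPM, log axis), for samples with at least 10 such cells; each point is 1 sample of the group named on the horizontal axis. For Cxcl2, Osm and Nfkbiz the untagged liver and lung samples lie above all untagged bone samples.

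The promoters of 3 genes that rose in liver and lung are shown because they hold letters of an NF-kB site. Each is the 250 bases before the gene start in RefSeq (GRCm38.p6). Capitals mark matches to GGNNTTTCC on either strand. Cxcl2 lies at chr5:90903649-90903898 on the plus strand with 2 matches, which end 87 and 68 bases before the start. Nfkbia, the gene of the inhibitor IkB-alpha, lies at chr12:55492648-55492897 on the minus strand with 2 matches, ending 169 and 20 bases before the start. Tnfaip3, the gene of the ubiquitin-editing inhibitor A20, lies at chr10:19015411-19015660 on the minus strand with 2 matches, ending 15 and 3 bases before the start.

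Cxcl2: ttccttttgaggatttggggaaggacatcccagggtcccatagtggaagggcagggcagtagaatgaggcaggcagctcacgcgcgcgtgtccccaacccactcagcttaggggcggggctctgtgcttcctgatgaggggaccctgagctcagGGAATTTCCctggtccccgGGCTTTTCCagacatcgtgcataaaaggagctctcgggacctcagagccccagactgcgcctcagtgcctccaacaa

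Nfkbia: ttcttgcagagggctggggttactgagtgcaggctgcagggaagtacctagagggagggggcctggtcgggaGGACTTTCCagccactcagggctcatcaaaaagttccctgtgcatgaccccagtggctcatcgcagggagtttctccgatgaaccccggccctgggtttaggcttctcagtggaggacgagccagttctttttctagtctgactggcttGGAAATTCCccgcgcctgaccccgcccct

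Tnfaip3: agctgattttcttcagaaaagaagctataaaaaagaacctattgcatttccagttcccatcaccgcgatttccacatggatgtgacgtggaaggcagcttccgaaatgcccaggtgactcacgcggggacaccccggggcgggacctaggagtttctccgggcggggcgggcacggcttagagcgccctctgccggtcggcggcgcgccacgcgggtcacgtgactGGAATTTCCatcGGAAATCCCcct

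A second listed promoter of Tnfaip3 held no match. These letters were in 1619 of 32851 promoters (4.93%), and 5.62% of 27025 genes had a promoter with them. Counted by gene, 10 of 18 NF-kB response genes with a listed promoter held them, 8 of 18 cytokine and chemokine genes, and 1 of 21 immediate early and heat shock genes. Of the genes on these lists that were called in at least 1 tissue, Cxcl2, Cxcl3, Nfkbia, Nfkb2, Tnfaip3, Acod1, Nlrp3, Ier3 and Pde4b held a match. Absence of a match says only that these letters are not in this window.

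Immediate early genes were among those that rose in liver and lung. All gene lists used here were chosen with earlier results of these data known, so their counts are description. Of 24 immediate early and heat shock genes tested, 1 rose in brain, 9 in liver and 13 in lung, and none fell in any of the 3, while 0.395%, 2.02% and 4.49% of all tested genes were called. The median log2 fold changes of the list were 0.69, 1.53 and 1.45, beside medians of -0.005, -0.015 and -0.042 over all tested genes. Egr1, an immediate early transcription factor, rose by 3.02 ± 0.58 on the log2 scale in liver (edgeR adjusted p = 0.00239). Fos, an AP-1 subunit, stood at 388, 475, 256 and 330.0 CPM in bone and 1039.8, 1940.3, 1186 and 1542 CPM in liver, a log2 fold change of 1.98 ± 0.34. In lung it stood at 314, 1573 and 1889 CPM, with 1 sample in the bone range, and the log2 fold change was 1.84 ± 0.36. Dusp1, a phosphatase that switches off MAP kinases, rose by 2.03 ± 0.30 in liver and 1.64 ± 0.31 in lung. Atf3 was the 1 member called in brain, at 126, 22.9, 189 and 5.22 CPM against 2.94 to 9.04 CPM in bone, so 1 brain sample overlapped.

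Some NF-kB response genes rose in liver and lung. Of 20 tested, 0 were called in brain by edgeR, 8 rose in liver and 10 in lung, where 0.395%, 2.02% and 4.49% of all tested genes were called, with medians of 0.39, 1.15 and 1.01. Nfkbia rose by 1.41 ± 0.22 in liver and 0.98 ± 0.23 in lung, and Tnfaip3 by 2.30 ± 0.57 and 2.49 ± 0.62. Ptgs2, the inducible cyclooxygenase, rose by 3.19 ± 0.55 in lung and 2.06 ± 0.56 in liver. Acod1, the enzyme that makes itaconate, rose by 1.54 ± 0.41 in liver and 1.97 ± 0.44 in lung. Ptgs2 in lung and Nfkbia in liver passed the test under every alternative run, and Acod1, Tnfaip3 and liver Ptgs2 did not. Nfkbia in lung lost the call with no filter and without lung sample 2 (edgeR adjusted p up to 0.145).

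Of 12 cytokine and chemokine genes tested, 2 rose in brain, 3 in liver and 6 in lung, beside 0.395%, 2.02% and 4.49% of all tested genes called. Beside Cxcl2 and Osm, liver called Tnf (1.14 ± 0.30), which lost the call in 8 of 14 alternatives, DESeq2 and no filter among them (adjusted p up to 0.327). Lung called the macrophage-attracting chemokines Ccl3 (3.96 ± 0.59) and Ccl4 (3.04 ± 0.60), the CXCR2 ligand Cxcl3 (3.56 ± 0.78) and the angiogenic factor Vegfa (2.32 ± 0.51). Ccl3 stood at 95.6, 24.7 and 411 CPM in lung against 9.75 to 14.2 CPM in bone, so the size of its rise came mostly from lung sample 4. Without that sample the log2 fold changes were 1.81 for Ccl3 and 0.41 for Ccl4, neither past the test (edgeR adjusted p up to 0.251 and 0.920). Cxcl3 also missed the threshold without it, and with DESeq2.

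Genes of hypoxia and glycolysis were among those called in lung. Of 28 hypoxia and glycolysis genes tested, 6 rose in lung, 1 in liver and 0 in brain, with medians of 0.19 in lung and -0.08 in liver, beside -0.042 and -0.015 over all tested genes. Of all tested genes 4.49% were called in lung and 2.02% in liver. Hilpda, a hypoxia-inducible lipid droplet protein, stood at 205, 274 and 405 CPM in lung against 14.2, 89.0, 27.5 and 19.0 CPM in bone and 21.9 to 87.3 CPM in liver. Cdkn1a, the cell cycle inhibitor p21, stood at 219, 129 and 204 CPM in lung against 3.68 to 33.1 CPM in bone, a log2 fold change of 3.56 ± 0.62. Pfkp, Slc2a1, Slc16a3 and Mif, which serve glucose uptake, glycolysis and lactate export or cytokine roles, were the others called; Slc2a1 was also the 1 gene of this list called in liver, where it lost the call in 5 of 14 alternatives. Without lung sample 4, Mif had a log2 fold change of 0.61 and missed the threshold (edgeR adjusted p = 0.556), and Pfkp lost the call in 3 of 13 alternatives. The pro-survival gene Bcl2a1b (2.62 ± 0.70) and the pro-apoptotic gene Bcl2l11 both rose in lung; Bcl2a1 genes are near-identical copies whose reads can be split among them. Each lost the call in 3 of 13 alternatives. No test compared lung with liver directly.

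**Figure D4:**
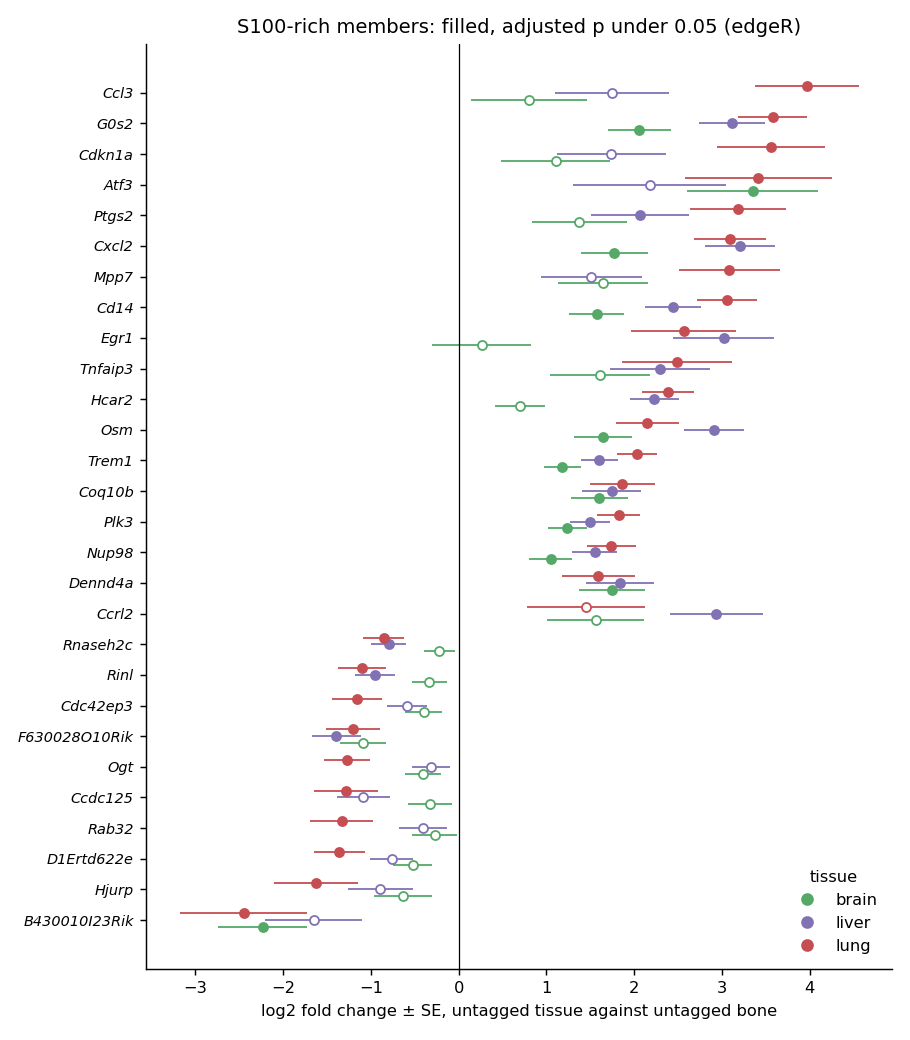
log2 fold change with SE in S100-rich cells for genes named in the text, each untagged tissue against untagged bone; filled points have an edgeR adjusted p under 0.05. Cxcl2, G0s2, Cd14, Osm and Trem1 are filled in the 3 tissues; the tissues share the same 4 bone samples.

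Genes of neutrophil identity and granules were mostly not called. Of 26 identity genes, 2 rose in brain, 3 in liver and 2 in lung, which were G0s2, Trem1 and, in liver, Clec4e, and none fell. Of all tested genes 0.395%, 2.02% and 4.49% were called in these tissues. Of 12 secondary granule genes tested, 0 were called in any of the 3 tissues by edgeR. Prok2 stood at 174, 272, 799.8 and 415 CPM in bone, with liver samples at 298, 313, 719 and 462, and lung samples at 178, 378 and 617, with overlapping ranges. Its log2 fold changes were -0.22 ± 0.52, 0.06 ± 0.53 and -0.02 ± 0.57 in brain, liver and lung. Slfn1 stood at 281 to 559.9 CPM in bone and 82.0 to 357 CPM in lung (log2 fold change -0.75 ± 0.38, edgeR adjusted p = 0.359). Mmp8 and Csf3r were not called either, with log2 fold changes from -0.42 to 0.09.

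Few genes fell. In lung, Ckap4 (-0.81 ± 0.24) and Ncf1, a subunit of the NADPH oxidase (-0.67 ± 0.18), were lower among listed genes, but lost the call in 8 and 6 of 13 alternatives. Ogt, which attaches N-acetylglucosamine to proteins, was lower at 63.0 ± 19.3 CPM in lung against 168 ± 38.9 CPM in bone (log2 fold change -1.27 ± 0.26, SD with n = 3 and 4). Interferon-stimulated genes were not called in any tissue by edgeR among 20 tested, with medians of -0.15, -0.21 and -0.75 in brain, liver and lung. Of 53 oxidative phosphorylation genes, 0 were called by edgeR in any tissue.

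**Figure D5:**
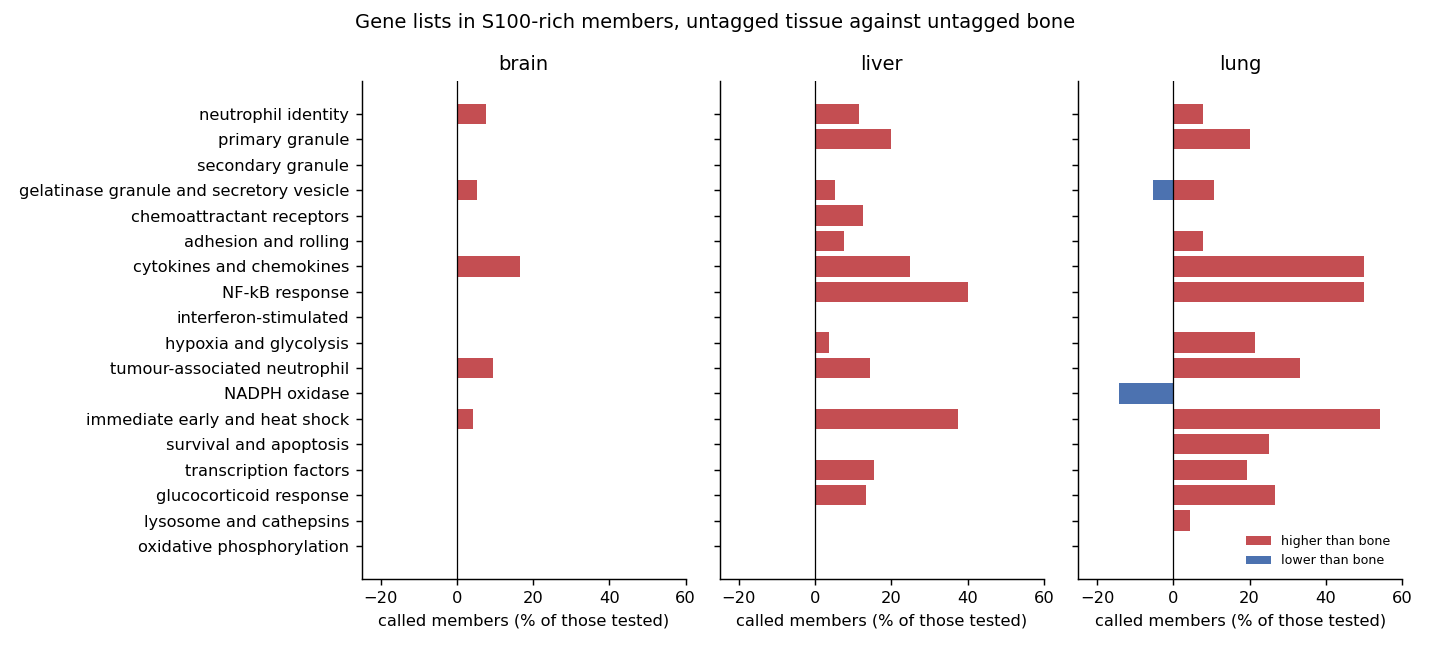
For each gene list, the percentage of tested members that were called higher (right) or lower (left) than untagged bone in S100-rich cells of untagged brain, liver and lung (edgeR, adjusted p under 0.05). In lung, 13 of 24 immediate early and heat shock, 10 of 20 NF-kB response and 6 of 12 cytokine and chemokine genes were called higher. The lists were chosen with earlier results of these data known.

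Several measures moved along with these results. In the other 2 neutrophil classes Cxcl2 was also higher outside bone: it averaged 248 ± 81.3 CPM in immature cells of untagged bone, 1911 ± 656 in liver and 2811 ± 1557 in lung, and correspondingly 4987 ± 1305, 22853 ± 3751 and 18222 ± 5488 CPM in activated cells (SD, n = 4). Il1b, capped by the rule, averaged 211 ± 116 CPM in the selected cells of bone, against 194 ± 69.7 for brain, 261 ± 44.0 for liver and 291 ± 85.0 for lung, so the 4 ranges of 1 SD overlapped. In B cells, Cxcl2 averaged 215 CPM for bone, 522 for brain, 583 for liver and 737 for lung, and G0s2 64.4, 113, 84.0 and 139. Fos in B cells averaged 315, 767, 491 and 409 CPM, and Junb 519.8, 1156, 911 and 1258. Junb ran from 382 to 665 CPM in B cells of bone, below all brain samples (782 to 1430) and all lung samples (1199.8 to 1383), and overlapped liver (647 to 1296). Fos ran from 269 to 378 CPM in bone, below all brain samples (512 to 949.6), and overlapped liver (329 to 891) and lung (276 to 574). Dusp1 in B cells averaged 169.6 CPM for bone, 432 for brain, 360.2 for liver and 354 for lung, Cd14 94.4, 181, 109 and 211, Nfkbiz 56.6, 139.8, 83.6 and 109, and Osm 22.0, 44.3, 37.2 and 32.3. Nfkbia averaged 265, 290.0, 195 and 368 CPM and Trem1 40.1, 34.2, 31.9 and 38.6. These B cell levels were not tested. The 18 monocyte and macrophage markers summed to 758 to 1315 CPM in S100-rich cells of untagged bone, 867.5 to 2194 in brain, 644 to 1706 in liver and 565 to 1121 in lung; none of the 18 was at 0, and 0 of 13 tested were called by edgeR. The 12 T and NK cell markers in the same cells summed to 22.1 to 220.0 CPM in untagged bone, 23.3 to 188 in brain, 6.41 to 105.3 in liver and 59.6 to 869 in lung; none of the 12 was at 0 in bone or lung. The part in the tissue differences of what the B cells, the other neutrophil classes and these markers show was not tested.

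Tagged and untagged cells were then compared within each tissue. In bone, where most cells were, 0 of 8084 genes (0%) were called by edgeR, with 195 at an unadjusted p under 0.05, 1 by DESeq2 and 46 by edgeR with no filter on low counts. On simulated data for this comparison of all selected cells over 8084 genes, 19 of 100 genes changed by 1 log2 unit and 71 of 100 changed by 2 were recovered. For untagged liver against untagged bone, 8 of 100 and 62 of 100 were recovered. The comparison of S100-rich cells was not simulated. S100-rich cells gave 0 of 4053 (0%), with 29 at an unadjusted p under 0.05, 0 by DESeq2 and 3 with no filter. Of the genes that separated tissues, Cxcl2 stood at 875, 1614, 2034 and 2036 CPM in tagged bone, overlapping the untagged samples, with a log2 fold change of 0.36 ± 0.37. Osm stood at 185, 173, 198 and 222 CPM in tagged bone, above every untagged sample, and its log2 fold change of 0.68 ± 0.33 did not pass the test (edgeR adjusted p = 1.00). G0s2 (0.59 ± 0.35), Cd14 (0.26 ± 0.31), Trem1 (0.40 ± 0.21) and Nfkbiz (0.35 ± 0.23) did not pass either. Of all 4053 genes tested in S100-rich cells, 64 did not overlap between tagged and untagged bone. Cxcl2, Osm, G0s2 and Nfkbiz were higher in the tagged sample of 4 of 4 same-numbered pairs, Trem1 in 3 and Cd14 in 2. These genes were picked for low levels in the same untagged bone samples, a choice that favours higher tagged values. The share of all genes higher in 4 of 4 pairs was not computed, so the pairs are description. The replicate block called 0 S100-rich genes and 1 gene with all cells by edgeR.

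In brain, 1 tagged sample held at least 20 of the cells and is assumed to vary like the other groups. Of 8084 genes 0 (0%) were called by edgeR, with 405 at an unadjusted p under 0.05, 1 by DESeq2 and 5 with no filter. In S100-rich cells, with 2 tagged samples, 0 of 4053 (0%) were called, with 162 at an unadjusted p under 0.05, 0 by DESeq2, 4 with the replicate block and 24 with no filter. Cxcl2 stood at 1746 and 6096 CPM in those tagged samples, against 1400.1 to 5954 CPM in the untagged.

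In liver, 326 of 8084 genes (4.03%) differed between tagged and untagged cells, 225 higher and 101 lower in the tagged. Genes of other liver cells were among those that rose: the Kupffer cell receptor Vsig4 (log2 fold change 4.25 ± 1.19), the chemokine Pf4 (5.03 ± 1.08), and the apolipoprotein gene Apoc1 (4.46 ± 1.02). Counting all samples, the 6 Kupffer cell markers summed to 0 to 7553.5 CPM in tagged and 0 to 311 in untagged liver. The 8 platelet markers summed to 0 to 1625 and 3.22 to 45.4 CPM, with Gp9, Gp1bb and Treml1 at 0 in both groups. The 8 hepatocyte markers summed to 0 to 1019 and 0 to 6.49 CPM, with Mup20, Apoc3 and Serpina1a at 0 in both. The hepatocyte genes Alb and Ttr rested on tagged sample 1, with Alb at 358, 11.3 and 0 CPM and Ttr at 350.2, 0 and 0 CPM in the 3 tagged samples, and both at 0 to 3.43 CPM in the untagged, so no fold is given. Without tagged sample 2, Vsig4 (1.26) and Apoc1 (2.21) lost the call, as did Pf4 (2.45) without tagged sample 3. The spread was wide, with Vsig4 at 348 ± 531 CPM in 3 tagged samples and 12.3 ± 24.5 CPM in 4 untagged. Trem1 (203 ± 122 against 615 ± 216 CPM) and Anxa1, the anti-inflammatory annexin (477 ± 188 against 1646 ± 817 CPM), were lower in tagged cells. Of 26 identity genes 1 fell and none rose, at a median of -1.15 beside 0.17 over all genes. S100-rich cells alone gave 0 of 4053 genes (0%) by edgeR, with 196 at an unadjusted p under 0.05, 0 by DESeq2 and 1 with no filter. The count was also 0 with cells carrying at least 2 UMIs of other cells' markers left out, and 0 without liver untagged sample 1 or 4; without tagged sample 3 it was 859, with the replicate block 611 and with no filter 1037.

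In S100-rich liver cells, tagged and untagged levels of 3 genes overlapped. Cxcl2 stood at 9919, 8039 and 14502 CPM in the 3 tagged samples with at least 10 such cells, against 6163 to 15279.9 CPM in the 4 untagged ones. Osm stood at 1083, 613 and 627 CPM, against 615 to 1360.5 CPM. G0s2 stood at 2347, 1493 and 4625 CPM, against 1535 to 4827 CPM. For Osm and G0s2 1 tagged sample lay just below the lowest untagged one.

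In lung, 950 of 8084 genes (11.8%) differed, 424 higher and 526 lower in tagged cells, with 3 tagged and 2 untagged samples. Alveolar macrophage markers rose: 8 of 10 tested, at a median log2 fold change of 4.80 beside 0.11 over all genes. Lpl averaged 1203 ± 113 CPM in tagged and 8.27 ± 11.7 CPM in untagged cells (edgeR adjusted p = 0.0112), and Ear1 and Ear2, near-identical copies whose reads can be split, rose too. Over all 4 samples of each group, the 10 markers summed to 12434 to 28722 CPM in tagged and 240.1 to 5638 CPM in untagged samples. Slc7a2, Dst, Trim29 and Cd200r4 were at 0 in the untagged samples and averaged 179, 106, 50.9 and 51.2 CPM in the tagged. With so few samples, 3697 of 8084 genes did not overlap between the groups. Absence of overlap was also a condition for naming genes by largest change. Neutrophil genes fell: 12 of 26 identity genes and 12 of 20 gelatinase granule and secretory vesicle genes were lower and none higher, at medians of -1.77 and -1.87. Of the selected cells, 86.2% in tagged and 26.2% in untagged lung were S100-poor, counting all samples. The part of that mix in these differences was not tested. Mmp8 averaged 692 ± 549 against 3080.0 ± 1236 CPM, Cd177, a surface protein of mature neutrophils, 110.4 ± 86.8 against 457 ± 55.9 CPM, and Il1r2, the decoy IL-1 receptor, 280.0 ± 191 against 1186 ± 532 CPM. Leaving out 1 sample gave 134 to 1014 genes, lowest without tagged sample 2, and the replicate block gave 1483.

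Among S100-rich cells of lung, 1 of 4053 genes (0.0247%) was called, with 274 at an unadjusted p under 0.05, 1 by DESeq2, 10 with the replicate block and 35 with no filter. It was Sgk1, a glucocorticoid- and serum-inducible kinase, named because it was the sole call: it stood at 386 and 90.0 CPM in 2 tagged samples and at 41.0, 37.1 and 36.8 CPM in 3 untagged samples, a log2 fold change of 2.82 ± 0.52 (edgeR adjusted p = 0.0339). The call was lost when any 1 untagged sample or tagged sample 3 was left out. The 10 alveolar macrophage markers in the same cells summed to 232 to 6320 CPM in the tagged and 232 to 1371 CPM in the untagged samples; 0 of 5 tested were called by edgeR, at a median log2 fold change of 4.37 beside -0.026 over all genes, and their part in the Sgk1 difference was not tested. Cxcl2 stood at 12544 and 16158 CPM in the tagged samples and at 8618, 11029 and 12951 CPM in the untagged. Tagged lung held 45 S100-rich cells in all, and 26 in the sample with the most.

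The tagged against untagged difference in lung was set against that in bone in the same fit. It differed for 96 of 8084 genes (1.19%), 46 with the larger difference upward in lung and 50 downward. The count was 0 without tagged lung sample 2, 198 without tagged lung sample 4, 397 with the replicate block and 339 with no filter, and 0 in S100-rich cells by edgeR, with 220 at an unadjusted p under 0.05. For brain against bone, where tagged brain was 1 sample assumed to vary like the other groups, 0 genes (0%) differed by edgeR, with 352 at an unadjusted p under 0.05 and 1 by DESeq2. For liver against bone, 0 genes (0%) differed by edgeR, with 811 at an unadjusted p under 0.05, 4 by DESeq2, 2 with the replicate block and 64 with no filter.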

How the data were processed

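Single-cell 3′ RNA sequencing was done on 32 intracardiac samples, 4 in each of 8 groups of tissue and biotin sort. The series also holds 1 pooled bone sample, used only for values at the end. Its label names TotalseqC and its file header cellranger 7.1.0. Raw UMI counts, 1 per gene and barcode, were deposited by the authors without normalization and were written by cellranger 6.1.2 for the intracardiac samples, per the file headers. The submitters' processing notes name Cell Ranger, Seurat and the build mm10. Intron and strand settings: not given in the sources used here. The matrices list 32285 genes and were already separated by multiplexing tag, per the labels.

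Cells were filtered (removing 1699 of 57065 barcodes, 2.98%) and chosen by UMI thresholds. UMIs of the selected cells were summed per sample and tested with edgeR 4.0.16 (R 4.3.3, limma 3.58.1; quasi-likelihood, 1 fit over 8 groups, TMM scaling, its expression filter, samples with at least 20 cells, Benjamini-Hochberg). Levels are TMM-scaled CPM. Shares were compared by exact two-sided permutation over samples. No doublets were removed. Of the selected cells, 557 (14.0%) had at least 2 UMIs of 11 markers of other cells and were left out as an alternative, as were S100-poor cells (samples with at least 10 S100-rich cells). Other alternatives were DESeq2 1.42.0, its size factors, no filter, a replicate block, other minimum cell numbers, thinning, a fit of 2 groups, and leaving out samples.

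The cells, and the 32 gene lists with 527 genes, of which 2 were not in the files, were chosen with earlier results of these data known. Named genes were, per comparison, the 8 of largest absolute log2 fold change in each direction among called genes without overlap of samples and with a mean of at least 50 CPM in the higher group, up to 4 called genes per list, and the rule's genes. The most telling of these are printed, together with a few chosen after their values were seen: Sgk1, Clec4e and Tnf where called, and, where not called, the same genes in other tissues. The test was checked on simulated data over 8084 genes. Each replicate number is a set of 8 samples that list the same multiplexing tags. Same-numbered bone samples deviated together (correlations 0.257, 0.493, 0.291 and 0.471 over genes), and values with the number as a block are given beside the counts they move. With the block, 1 gene was called in bone in place of 0. A few results are not reported here. Counting intervals are not given, because comparisons rest on the spread between samples.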

Additional observations from a re-analysis of the deposited data

Results flagged for a closer look

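In a group of 4 samples, a sample was picked out when its gap to its neighbour took more of the group's range than Dixon's critical value allows. Over the 72 groups tested, chance picks out about 1 in 20, and 5 samples were picked out. Tagged brain sample 2 had 27.0% of its neutrophils in the mature Cxcr2 Retnlg class, while the other 3 had 11.6% to 12.5%. It held 10 such cells, of which 3 were S100-rich. Tagged lung sample 2 had 50.1%, while the other 3 had 2.79% to 9.72%, and 1.78% of its 225 cells were S100-rich. In S100-rich cells, Ccrl2, a chemokine-binding receptor, stood at 6.81 CPM in untagged bone sample 4 and 23.7 to 26.3 CPM in the others. Ptgs2 stood at 133 CPM in untagged liver sample 3 and 31.3 to 45.6 CPM in the others. Trem1 stood at 355 CPM in untagged brain sample 1 and 530.4 to 564 CPM in the others.

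The difference between tagged and untagged cells differed between lung and bone for 96 genes in edgeR's test of that difference, with all selected cells. The S100-rich share of tagged lung was 1.78% to 49.1% beside 81.3% to 95.9% in tagged bone, and with S100-rich cells alone 0 genes differed by edgeR.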

How the results depend on the processing

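The shares of kept cells, tagged minus untagged in percentage points, turned in liver with a mitochondrial maximum of 10% (0.0257) and in lung with thinning to 1000 UMIs (-0.203) and with S100-rich cells alone (-0.360, and -0.342 as a share of neutrophils). The untagged share of neutrophils minus that of bone no longer passed the test in brain with thinning (-6.78), S100-rich cells (-18.5) or the replicate block (-20.1), in liver with thinning (-17.6), Retnlg of at least 1 (-24.3) or the block (-25.5), and in lung with the block (-33.8); the block's exact test on 4 pairs cannot go below 0.125. Leaving out 1 sample gave, as shares of kept cells, -10.4 to -3.30 for bone, -6.07 to -3.20 for brain, -0.880 to 0.634 for liver and 1.19 to 4.16 for lung. As shares of neutrophils it gave -9.54 to 0.636, -6.46 to -1.06, -2.49 to 1.83 and 2.34 to 18.1 for tagged minus untagged, and -24.5 to -16.3, -29.9 to -21.6 and -38.2 to -29.9 for brain, liver and lung minus bone.

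Counts of called genes, with all selected cells, changed as follows, for tagged against untagged first and then for untagged tissue against bone. DESeq2 gave 1 in bone, 1 in brain, then 17 in brain, 66 in liver and 137 in lung, and 1, 4 and 306 for the tagging difference of brain, liver and lung against that of bone. DESeq2 size factors gave 24 in untagged liver and 37 in untagged lung. Without a filter there were 46 in bone, 5 in brain and 1037 in liver, then 36, 180 and 173, and 64 and 339 for liver and lung against bone's difference. The replicate block gave 1 in bone, 611 in liver and 1483 in lung, then 6, 52 and 166, and 2 and 397. Samples of at least 10 cells gave 1 in brain and 155 in liver, then 7 in liver and 95 in lung. Samples of at least 50 gave 1481 in lung, then 1, 34 and 96, and 556. Without cells carrying other cells' markers there were 0 in liver and 1479 in lung, then 46 in liver and 131 in lung, and 687. Thinning gave 0 in liver and 229 in lung, then 20 and 45, and 14. A fit of the 2 groups gave 0 in liver, then 43 in liver and 207 in lung. S100-rich cells gave 0 in liver and 1 in lung, then 16, 82 and 182, and 0. The cause of these changes was not tested.

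Leaving out 1 sample gave 0 to 859 genes in tagged against untagged liver, 134 to 1014 in lung and 0 to 0 in bone and brain, 1 to 22 in untagged liver, 0 to 21 in untagged lung, 0 to 1 for liver against bone's difference and 0 to 198 for lung. In S100-rich cells, no filter gave 3 for bone, 24 for brain, 1 for liver and 35 for lung, then 56 in untagged brain. The replicate block gave 4 in brain and 10 in lung, then 80, 186 and 337, and samples of at least 20 gave 5 in lung. Leaving out 1 sample there gave 0 to 1 in brain and 0 to 9 in lung, then 0 to 28, 42 to 82 and 89 to 191. Correlations of same-numbered untagged liver and bone samples were 0.126, 0.372, 0.0469 and 0.362.

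Of the genes named or listed, 2117 values under an alternative kept direction and side of the threshold, 854 kept direction and lost the call, and 18 turned, all in tagged against untagged liver or lung. Without cells carrying other cells' markers, liver turned for Apoc1 (-6.37), Rgs1 (-1.18), Ctsb (-0.32), Bcl2a1d (-2.61) and Sgk1 (-0.87). With S100-rich cells, liver turned for Rgs1 (-0.64), Spp1 (-0.31), Ctsb (-0.36) and Blvrb (-0.80), and lung for Ptafr (0.41), Ceacam1 (0.082), Bcl3 (0.025), Marcksl1 (0.38), Oas3 (0.11), Rac2 (0.039) and Junb (0.21). Thinning turned Dnajb1 in lung (0.0089), and leaving out tagged liver sample 1 turned Epcam (-2.54, with up to 9.62 without other samples). Tagged brain held 53 cells, 43 of them S100-rich, and tagged lung 45 S100-rich cells.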

Other observations

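The pooled bone sample of the other injection, named IIA in the labels, has no map from cells to its conditions here and entered no comparison. By the same rule it held 2329 cells among 26186 kept (8.89%), which were 24.0% of its 3 neutrophil classes. Of these, 93.0% were S100-rich, a share inside the range of the untagged intracardiac bone samples. Their median depth was 1983 UMIs. Prok2 was detected in 12.4% of them and in 0.982% of the sample's B cells, and Slfn1 in 52.3% and 4.91%.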
